A study of Anopheles gambiae with 36 samples.

Results

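A group of 70 transcripts, from 69 genes, rose and fell with the opsin transcript AGAP013149-RA from library to library in the ears of Anopheles gambiae. They were selected on measured values. In each of 35 libraries the level of a transcript was taken as log2(normalised count + 1), the mean of its sex and time point was subtracted, and a transcript was kept when the remainder had a Pearson r of 0.8 or more with that of AGAP013149-RA and its mean normalised count was 100 or more. Of 15863 transcripts of 13832 genes in the table, 9141 reached the mean count once the 8 opsin genes themselves were left out, and the 70 members are 0.766% of those. The libraries came from the second antennal segment of Kisumu strain mosquitoes, taken without the flagellum, each a pool from 35 mosquitoes aged 3 to 7 days. Females and males were collected at zeitgeber time (ZT) 0, 4, 8, 12, 16 and 20 h, counted from lights on, with no other treatment. All were first kept for 3 days in 12 h of light and 12 h of darkness with 1 h ramps, at 28 °C and 80% humidity. Each sex and time point has 3 libraries, except male ZT12, which has 2 because the study discarded the other one.

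The second antennal segment houses the Johnston's organ, a chordotonal organ whose neurons and support cells sense movements of the flagellum caused by sound. Opsins are G protein-coupled receptors that absorb light in the photoreceptors of insect eyes, where in Drosophila they act through a Gq protein, phospholipase C and TRP channels. In Drosophila some opsins are also made in the neurons of the Johnston's organ and take part in hearing. None of the 70 members has a name in the count table or in the study's lists of receptors. The RefSeq gene table holds no AGAP identifiers, so no member could be looked up there, whether or not it has a name. The data thus give their identifiers and levels but not their functions. Whether they are eye transcripts could not be checked beyond their relation to the opsins. Defining markers of the Johnston's organ, of the eye and of other tissues could not be looked up for the same reason, and the members are therefore called opsin-covarying transcripts.

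Total estimated counts ran from 9341518 to 17815883 in the 18 female libraries and from 11074586 to 18254972 in the 17 male libraries. The opsin genes took 9.37% to 45.6% of all counts in female libraries (median 27.0%) and 1.39% to 13.7% in male libraries (median 4.58%). The members took 3.38% to 13.6% and 0.559% to 5.09%. Normalised counts are counts divided by a median-of-ratios size factor, which is set by the bulk of transcripts and so is little moved by a few very abundant ones. Reads carry no molecular identifiers, and libraries of one sex and time point are known only as separately labelled pools, so p-values measure the spread between these pools.

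AGAP013149-RA (GPROP1 in the study's lists) set the rule, and its values are a description. Its normalised count was lowest in females at 725295 (ZT12 replicate 1), had a median of 2218749.5 and was highest at 6413409 (ZT20 replicate 2). Male libraries ran from 81879.9 (ZT12 replicate 1) over a median of 271059.8 to 858398 (ZT16 replicate 2). The ranges of the sexes overlapped only between the highest males and the lowest females. Within a sex and time point, the highest library exceeded the lowest by 1.72-fold to 9.69-fold, with a median of 3.12-fold, and this spread between pools is what the rule used. The other opsins followed it unequally. AGAP012982-RA (GPROP3), AGAP012985-RA (GPROP4) and AGAP010089-RA (GPROP9) had r values of 0.993, 0.992 and 0.968, the transcripts of AGAP006126 (GPROP8) had 0.928 and 0.897, and AGAP001161-RA (GPROP6) had 0.878. AGAP001162-RA (GPROP5) stood at 0.602, and both isoforms of AGAP007548 (GPROP10), at mean counts under 100, stood at 0.345 and 0.327. Opsin genes of similar sequence can share reads, which the quantification then divides among them.

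**Figure D1:**
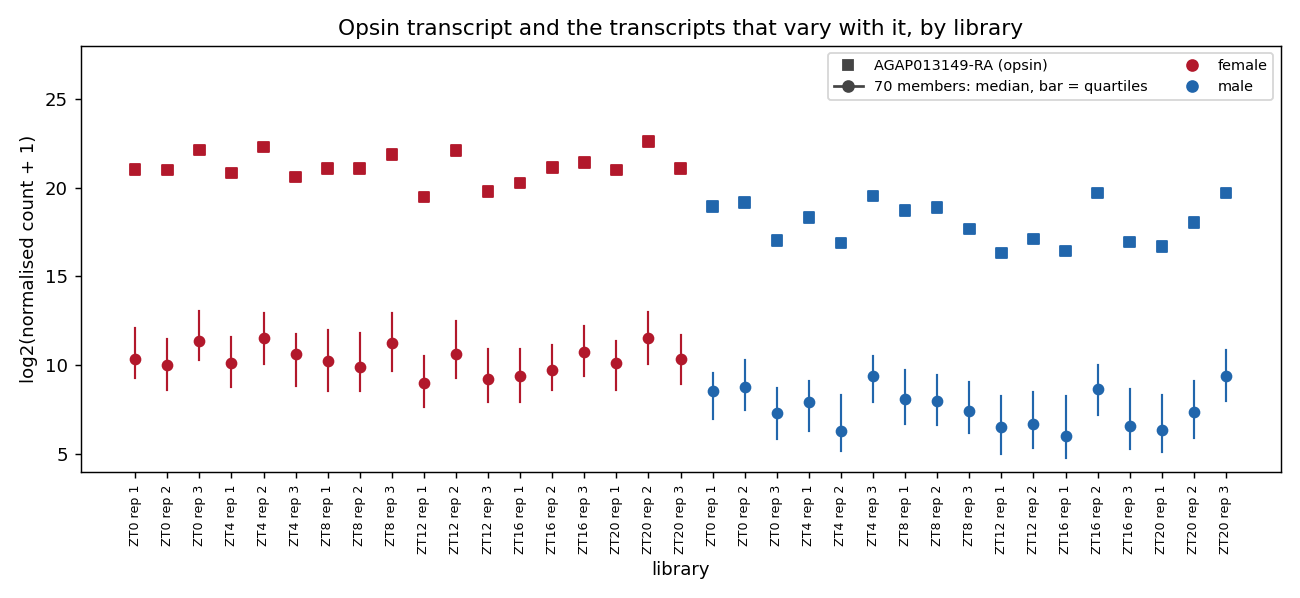
Log2(normalised count + 1) of the opsin AGAP013149-RA (squares) and the median of the 70 opsin-covarying transcripts (circles, with bars from the lower to the upper quartile over transcripts) in each of the 35 libraries, females in red and males in blue. The circles mostly follow the squares up and down within a time point, but not between female ZT4 replicates 1 and 3 or male ZT8 replicates 1 and 2. Both lie mostly lower in males.

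The members followed the opsin closely in both sexes, by construction. Their r ran from 0.808 to 0.984, with a median of 0.876. Computed in females alone it ran from 0.728 to 0.974 and in males alone from 0.767 to 0.994. The members were also alike among themselves, since r between pairs of them ran from 0.53 to 0.985 with a median of 0.849, and 1731 of 2415 pairs reached 0.8. The closest was AGAP010134-RA at r = 0.984. Its normalised count ran from 172805 over a median of 351546 to 1063702 in females and from 14254 over a median of 44392 to 142541 in males, so that every female library lay above every male library. AGAP003547-RA came next at r = 0.978, with 2351, 5837 and 16552 counts in females and 119.8, 429.6 and 2699 in males (lowest, median, highest), and here the highest males overlapped the lowest females.

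The rule used deviations within each sex and time point, so agreement on the highest library of a group is largely built in. The counts that follow are a description. In the female groups, the library with the highest opsin level also held the highest level of 69 of 70 members at ZT0 and of all 70 at ZT4, ZT8, ZT12, ZT16 and ZT20. These were female replicate 3 at ZT0, ZT8 and ZT16 and replicate 2 at ZT4, ZT12 and ZT20. No replicate number was high throughout, but replicate 1 was the highest opsin library in no group of either sex. It was the lowest in both sexes at ZT12, ZT16 and ZT20, and the reason was not tested. In males the highest opsin library held the highest level of 70 members at ZT16 and at ZT20, of 68 at ZT4, 54 at ZT0 and 47 at ZT12. At male ZT8, where the opsin ran from 207815 to 481282, it did so for 23. At the other end, the lowest opsin library held the lowest level of 21 members at female ZT4. In the other female groups it did so for 49 (ZT20) to 65 (ZT0). In males it did so for 47 members at ZT12 and for 58 (ZT8) to 68 (ZT0) at the other time points.

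**Figure D2:**
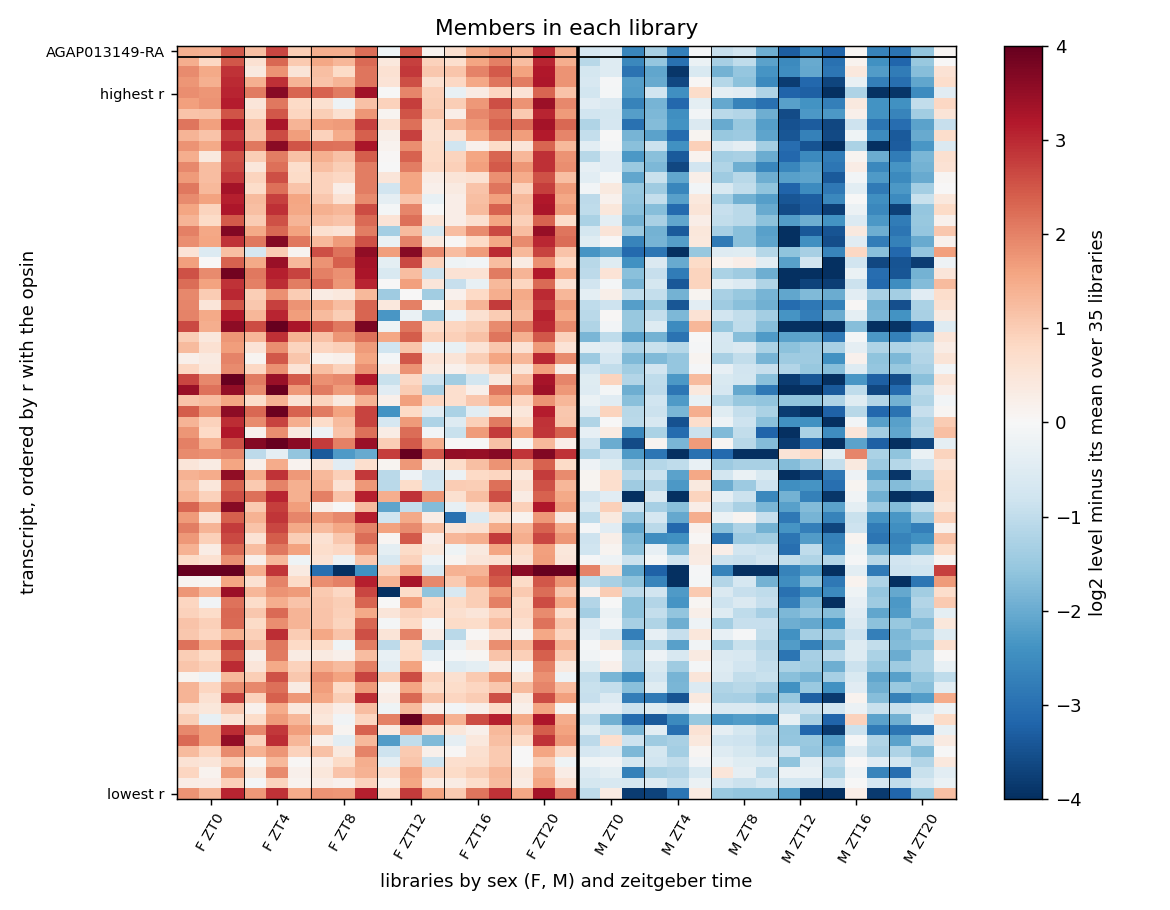
Log2 level of the opsin AGAP013149-RA (top row) and the 70 opsin-covarying transcripts, ordered by r from 0.984 down to 0.808, in each of 35 libraries as columns, each row centred on its own mean over the libraries (red above, blue below, scale cut at 4 log2 units). Most rows of a column darken or lighten together within a time point. The female libraries are mostly red and the male ones mostly blue, and a few rows change colour with time of day.

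Most member counts came from few transcripts. Counts are not divided by transcript length here, so this is an order of counts and not of molecules. AGAP006263-RA had the highest mean, 726923 ± 391280.0 (SD, n = 18) in females and 98864 ± 91492 (SD, n = 17) in males. Its lowest, median and highest counts were 226453, 595732 and 1640107 in females and 21145, 61767 and 339009 in males, and the sexes overlapped. AGAP010134-RA followed at 434179 ± 252217 in females and 53570.0 ± 40907 in males. Together both held 75.4% of all normalised member counts, and the 5 most abundant transcripts held 88.3%. Only 5 members had a mean over 10000 counts, 31 lay between 1000 and 10000, and 34 lay under 1000, with a median of 1011.0 over the 70. For every 100 counts of AGAP013149-RA, the members together had 35.98 to 88.3 counts in females (median 57.6) and 42.1 to 84.5 in males (median 58.4), so that the ratio of members to opsin spanned a similar range in both sexes.

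Members differed in how steeply they followed the opsin. The slope, the change in log2 level for each log2 unit of AGAP013149-RA within sex and time point, ran from 0.329 to 1.34 with a median of 0.852. It lay between 0.8 and 1.2 in 37 members, under 0.8 in 31 and above 1.2 in 2, while 6 of those under 0.8 were also under 0.5. A slope of 1 means that the transcript changed by the same factor as the opsin between pools. Computed in females alone, the slope ran from 0.447 to 1.29, and in males alone from 0.188 to 1.57. It differed between the sexes in some members, in either direction. AGAP028157-RA had 0.601 in females and 0.188 in males, and AGAP029512-RB had 0.90 and 1.56. Both were named after their values were seen.

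The threshold on r cut through a continuous range. Just inside stood AGAP029512-RB (r = 0.808) and AGAP028157-RA (0.810), and just outside AGAP001372-RB (0.799) and AGAP011119-RA (0.796). On the mean count, AGAP006001-RA (104.1) and AGAP005948-RA (110.1) were just inside, and AGAP001767-RA (82.7) and AGAP029357-RA (71.4) were just outside. In all, 5 transcripts outside the opsin genes reached the r but not the mean count. In the opposite direction 1 eligible transcript had an r of -0.8 or lower, AGAP011686-RA at -0.82, which was singled out after its value was seen.

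The sexes were then compared. The r of the rule was computed after the group means had been subtracted, but its minimum mean count was taken over both sexes. In 15 members the mean was under 100 in males, so that they passed through their female level and their sex difference is partly fixed by the rule, while 55 had a mean of 100 or more in each sex. All 70 opsin-covarying transcripts were higher in females (edgeR quasi-likelihood test, Benjamini-Hochberg adjusted over all 12428 transcripts tested, highest adjusted p of a member 2.79e-05) and 0 were higher in males. Among all transcripts tested, 34.2% were called higher in females and 34.2% higher in males. The median member was 6.53-fold higher in females, a log2 fold change of 2.71 (female minus male), and members ran from 1.07 to 4.19, against a median of 0.0004 over all transcripts tested. All 55 with a mean of 100 or more in each sex were among the calls, with log2 fold changes from 1.2 to 4.19 and a median of 2.75. All 70 also passed an adjusted p of 0.01. Since no member had a negative log2 fold change, a looser threshold could not add a call in males. With DESeq2 the number higher in males was also 0. The segments were removed from the heads with forceps and sequenced in bulk. Fewer cells that make a transcript, less of its RNA in each cell and a different tissue of origin therefore cannot be told apart.

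AGAP006467-RA had the largest sex difference. Its normalised count ran from 320.0 over a median of 1581 to 7955 in females and from 2.68 over 109.9 to 915.1 in males, with some overlap, and the log2 fold change was 4.19 ± 0.44 (SE, n = 18 females and 17 males, edgeR adjusted p = 7.12e-10). AGAP000094-RA ran from 2555 over 6397 to 16439 in females and from 131.7 over 374.2 to 1097 in males, without overlap, and differed by 4.02 ± 0.32 (SE, edgeR adjusted p = 1.89e-12). The smallest difference was that of AGAP002463-RB, with 76.4, 209.3 and 368.8 counts in females and 43.8, 96.9 and 180.7 in males (lowest, median, highest). It differed by 1.07 ± 0.19 (edgeR adjusted p = 1.07e-05). AGAP013284-RB was next, with 306.0, 721.2 and 1674 counts in females and 204.2, 279.9 and 591.7 in males, a difference of 1.2 ± 0.19 (edgeR adjusted p = 1.25e-06). In both of the latter, female and male libraries overlapped widely although the group means differed.

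In 8 of the 70 members, or 11.4%, every female library lay above every male library, against 5.35% of all transcripts tested. The other 62 overlapped, and no member had all males above all females. AGAP010134-RA and AGAP000094-RA are among the 8. So are AGAP004103-RA and AGAP008726-RA, with male means of 94.9 and 51.7 counts. Both passed the minimum mean count through their female level, so the share without overlap is partly fixed by the rule.

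The sex difference of a transcript went with its r across the whole table. Over the 9141 eligible transcripts, all of them tested, the median log2 fold change (female minus male) was -1.04 for the 259 with an r under -0.6, 0.001 for the 1870 with r from 0 to 0.2, 0.59 for the 820 with r from 0.4 to 0.6, 1.29 for the 200 with r from 0.6 to 0.8 and 2.71 for the 70 members. The share called higher in females was 2.32%, 34.7%, 70.4%, 89.5% and 100% in these ranges. These points share libraries and scaling, and the relation is given as a description. The members thus stood at the end of a gradient that had no gap at the threshold.

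**Figure D3:**
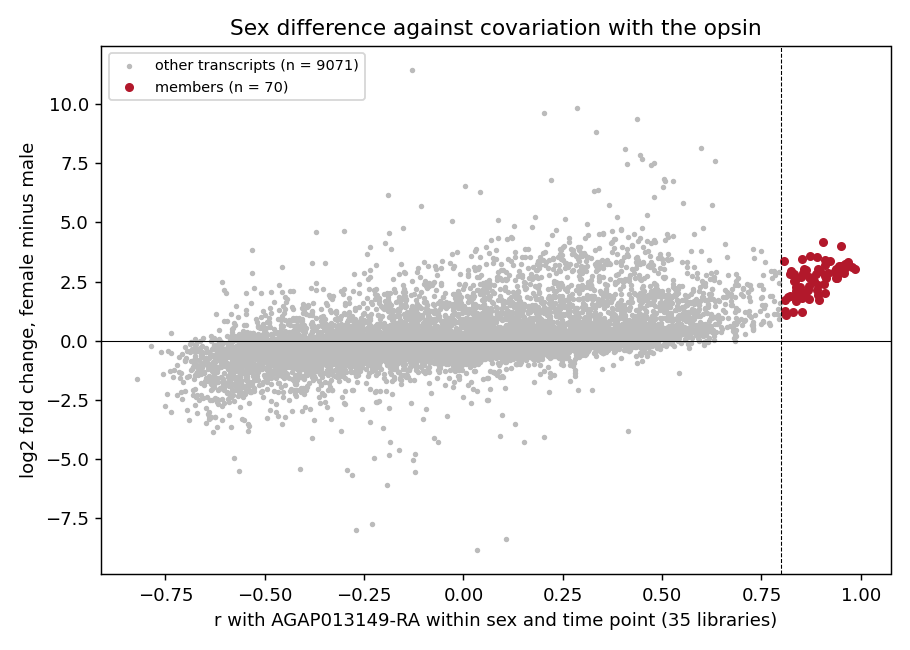
Log2 fold change between the sexes (female minus male, y axis) against r with the opsin AGAP013149-RA within sex and time point (x axis), for the 9141 eligible transcripts, with the 70 members in red right of the dashed line at 0.8. All members lie above 0, between 1.07 and 4.19, and the grey cloud rises from left to right.

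The scaling between the sexes mattered for all transcripts but not for the direction of the members. With total counts in place of TMM, a scaling that is set by the bulk of transcripts, the median of all transcripts moved to -0.53 and the calls split into 2449 higher in females and 7246 in males (25.3% of calls female, against 49.97% with TMM). The median member was then 2.12, and again all 70 were called higher in females. With DESeq2's size factors and test the median of all transcripts was 0.13 and that of the members 2.74.

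Next, the sexes were compared with the opsin level of each library held in the model, which asks whether a transcript differed between the sexes beyond what its relation to AGAP013149-RA accounts for. With this term 4 of 70 members, or 5.71%, were called higher in females and 0 higher in males (edgeR, adjusted over 12692 transcripts), where 14.3% of all transcripts tested were called higher in females and 14.8% higher in males. The 0 higher in males was also 0 at an unadjusted p under 0.05 and with DESeq2. The members were chosen by their relation to the covariate itself, so their spread in this model is small by construction and nothing is read from their share beside that of all transcripts. The median member had a log2 difference of 0.07 (female minus male), with 40 above 0 and 30 below. The opsin level itself differed between the sexes, so this model has less information on sex than the one before, and 66 members that missed the threshold are not shown to be equal in both sexes. The model also takes a single slope on the opsin for both sexes, although the slopes of some members differed between them.

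All 4 transcripts called with the opsin level held are named here, as a description. Members were selected on the covariate, so their standard errors and p-values in this model are partly small by that selection. AGAP000094-RA kept a log2 difference of 1.51 ± 0.21 (SE, edgeR adjusted p = 1.78e-06) of its 4.02, and AGAP006467-RA kept 1.25 ± 0.39 (edgeR adjusted p = 0.0149) of its 4.19. AGAP008726-RA, with 130.8, 285.9 and 546.0 counts in females and 21.3, 46.7 and 88.7 in males, kept 1.00 ± 0.24 (SE, edgeR adjusted p = 0.00168) of 2.54. AGAP008726-RA passed the minimum mean count through its female level, so its sex difference is partly fixed by the rule. AGAP003509-RB, with 3181, 5952 and 9622 counts in females and 573.4, 1184 and 2557 in males, kept 0.59 ± 0.18 (edgeR adjusted p = 0.0157) of 2.14. The last 2 and AGAP000094-RA did not overlap between the sexes. AGAP000094-RA and AGAP008726-RA were called under all 8 alternative fits of this model, AGAP006467-RA under 6 of 8 and AGAP003509-RB under 5 of 8. AGAP006467-RA lost its call without replicate 1 or without replicate 2, and AGAP003509-RB lost it without replicate 2 and with total counts. The lowest values with the opsin held were -0.80 ± 0.42 for AGAP000137-RA (edgeR adjusted p = 0.158) and -0.76 ± 0.40 for AGAP001546-RA (edgeR adjusted p = 0.162), neither past the threshold.

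The slopes within groups rest on the same relation that chose the members, and nearly repeat the model with the opsin level, so what follows is a description. The opsin's mean log2 level was 3.15 higher in females, and multiplying this by each member's slope within groups gives the difference that the slope alone would give. The slope used here is the one over both sexes, although it differed between the sexes in some members. The measured difference in mean log2 level exceeded that product by a median of 0.09, was within 0.5 of it in 50 members and within 1 in 65, and ranged, as measured minus product, from -1.203 (AGAP000137-RA) to 1.59 (AGAP000094-RA). The 6 members with a slope under 0.5 had a median log2 fold change of 1.23, while the 37 with a slope from 0.8 to 1.2 had 2.95. Across the 70 members, slope and log2 fold change had an r of 0.728, a description over transcripts that share all 35 libraries.

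**Figure D4:**
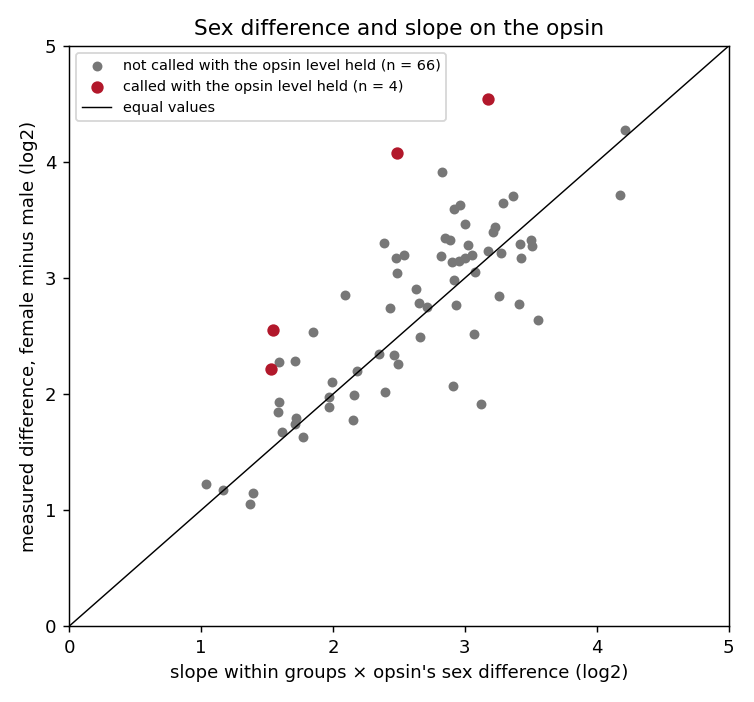
Difference in mean log2 level between the sexes (female minus male, y axis) against the slope on AGAP013149-RA within groups multiplied by the opsin's own difference of 3.15 (x axis), 1 point for each of 70 members, with the line of equal values. Most points lie along the line, and the 4 transcripts called with the opsin level held (red) lie above it.

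Time of day was compared within each sex. In females 4 of 70 members, or 5.71%, differed between the 6 time points (edgeR, adjusted over 12322 transcripts), where 1.23% of all transcripts tested did. In males 1 member, 1.43%, differed, against 1.67% of all transcripts (adjusted over 12360). All of them are named here. The male one, AGAP002905-RA, is also among the female 4.

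AGAP002905-RA was high from dusk through the night and low by day. Female normalised counts at ZT12 were 1163, 4050.2 and 964.1 in replicates 1, 2 and 3. At ZT16 they were 1978, 1937 and 2165. At ZT8 they were 15.9, 34.8 and 41.8, so that the highest and lowest means, at ZT12 and ZT8, differed 66.8-fold without overlap (edgeR adjusted p = 0.000185). Males had 245.8 and 294.9 counts at ZT12, 130.2, 664.7 and 71.0 at ZT16, and 19.1, 9.07 and 9.33 at ZT8, again without overlap between the highest and the lowest group (edgeR adjusted p = 0.0184).

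AGAP000213-RA was highest at ZT4 in both sexes. Females had 2508, 5952 and 2433 counts at ZT4 and 200.1, 195.4 and 444.3 at ZT16, a 13.0-fold difference of means without overlap (edgeR adjusted p = 0.00635). Males had 211.7, 55.3 and 644.0 counts at ZT4 and 13.4 and 23.4 at ZT12, where the adjusted p for time was 0.362 (edgeR).

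AGAP003502-RA was highest at ZT0 and lowest at ZT12. Females had 3077, 2100.0 and 7596 counts at ZT0 and 140.1, 319.2 and 185.2 at ZT12, 19.8-fold apart without overlap (edgeR adjusted p = 0.0404). Males had 428.3, 1194 and 345.5 counts at ZT0 and 135.8 and 182.2 at ZT12, with an adjusted p of 0.725 (edgeR).

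AGAP006001-RA had the lowest mean of the members, 104.1, and passed the minimum of 100 through the groups in which it was high, so its time course is partly fixed by the rule. It peaked at ZT0 in females with 322.0, 282.0 and 1242 counts. At ZT8 it had 1.22, 0 and 2.32, at or under the limit of 3 counts that a count of 0 allows, so no fold is given (edgeR adjusted p = 0.00227). Male counts were 69.3, 26.7 and 3.25 at ZT0, 1.82, 0 and 0 at ZT8, and 9.14, 9.22 and 118.4 at ZT20 (edgeR adjusted p = 0.445). Leaving out replicate 1 in every group ended all 4 female calls, and leaving out any of the replicate numbers ended the male call of AGAP002905-RA. The female call of AGAP002905-RA held without replicate 2 and without replicate 3, those of AGAP000213-RA and AGAP006001-RA held without replicate 2 only, and that of AGAP003502-RA held in none of the 3.

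**Figure D5:**
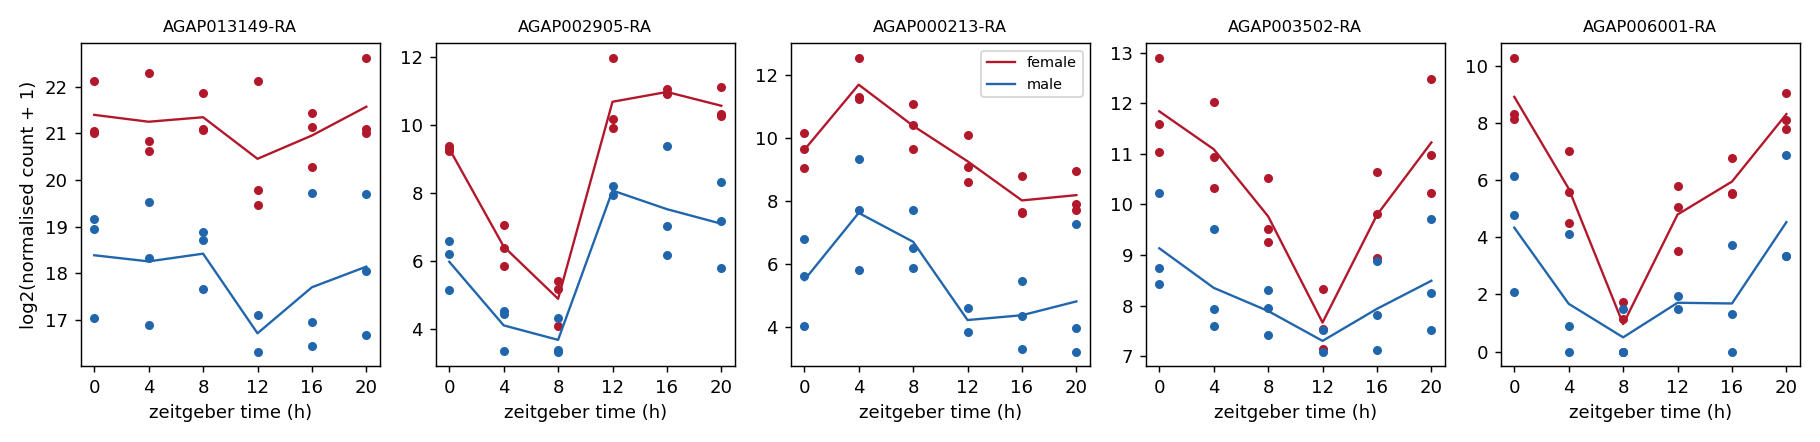
Log2(normalised count + 1) against zeitgeber time (h) for the opsin AGAP013149-RA and the 4 members that differed with time in females, females in red and males in blue, with a point for each library and lines through the means. AGAP002905-RA is low at ZT4 and ZT8 and high from ZT12 to ZT20 in both sexes, AGAP000213-RA peaks at ZT4, and AGAP003502-RA has its lowest female mean at ZT12 and AGAP006001-RA at ZT8.

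The other members did not pass this test, and the count depends on the tool. At an unadjusted p under 0.05 there were 21 members in females and 6 in males. The share over all transcripts at that threshold was not counted, so nothing is read from these counts. DESeq2's likelihood ratio test called 18 members in females, where it called 650 of 12546 transcripts tested. In males it called 3 members, against 633 of 12623 transcripts. The means of the 70 are given as a description. The lowest of the 6 time-point means fell at ZT12 in 37 of 70 members in females (52.9%) and in 55 of 70 in males (78.6%), and the opsin AGAP013149-RA also had its lowest mean log2 level at ZT12 in both sexes (20.5 in females and 16.7 in males, over 3 and 2 libraries). The highest mean fell at ZT20 in 22 members and at ZT0 in 21 in females, and at ZT0 in 30 in males. Over the 6 time-point means, r between a member and the opsin had a median of 0.708 in females and 0.841 in males, and it was negative for 9 and for 4 members.

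With the opsin level of each library held in the model, 25 of 70 members (35.7%) were called for time in females and 10 of 70 (14.3%) in males. The figures for all transcripts were 1.76% and 1.95%. The members were chosen for little spread around their relation to the opsin, so an excess of calls is built in, nothing is read from these counts, and the values are a description. The distance between the highest and the lowest time point, with the opsin held, had a median of 2.42 log2 units over the female calls (0.85 to 8.69) and 2.22 over the male calls (1.36 to 5.70). In AGAP003547-RA, whose r with the opsin was 0.978, the fitted level stood at 0.50 from its own mean at ZT12 and -0.83 from it at ZT4 in females, and at 0.81 at ZT12 and -0.76 at ZT4 in males. It was named after its values were seen.

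Whether the time course differed between the sexes was tested with an interaction of sex and time. Of the 70 members 0 passed (edgeR, adjusted over 12898 transcripts), and 0 had an unadjusted p under 0.05. DESeq2 also called 0 members. Over all transcripts, 0.00775% were called by edgeR, so the test was nearly silent everywhere, and members called for time in 1 sex only are not shown to differ between the sexes.

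Several member genes have further isoforms that did not follow the opsin. Of the 69 genes, 51 have a single transcript in the table. The others have 42 transcripts that are no members, 25 of which, from 15 genes, reached a mean count of 100. The r of these 25 ran from -0.61 to 0.78 with a median of 0.174. By edgeR 13 of them were higher in females, 3 were higher in males and 9 did not pass, with a median log2 fold change of 0.47, against 2.71 for the members. AGAP002274-RA had an r of -0.61 and a mean of 661.1 counts in females and 886.7 in males, a log2 fold change of -0.48 ± 0.32 (edgeR adjusted p = 0.185), while the member isoform AGAP002274-RB had an r of 0.866 and 2.15. AGAP003509-RD stood at -0.52 beside 0.889 for AGAP003509-RB, with log2 fold changes of 0.58 ± 0.25 (edgeR adjusted p = 0.0453) and 2.14. AGAP005032-RA stood at -0.42 beside 0.91 for AGAP005032-RB and was lower in females, its log2 fold change being -0.38 ± 0.08 (edgeR adjusted p = 0.000131), where AGAP005032-RB was higher by 2.75. Reads that fit several isoforms were divided by the quantification, so the split between isoforms of 1 gene is uncertain. AGAP029557 is the only gene with 2 members, AGAP029557-RB and AGAP029557-RA, at r = 0.967 and 0.951.

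No member stands in the study's lists of 172 receptor transcripts, but the lists show which named receptors came near. These were picked by their r, which is a description. The study's photoreceptor category holds 17 transcripts, 10 of them of the opsin genes above. Of the other 7, AGAP002462-RA (GPROP7, a further opsin) came closest at r = 0.777, with a mean count of only 21.5. It had 36.9 ± 20.02 counts in females and 5.16 ± 3.79 in males (SD), a log2 fold change of 2.80 ± 0.37 (SE, edgeR adjusted p = 6.22e-08). CRY1 (AGAP001958-RA), a cryptochrome that in Drosophila resets the clock by light, stood at 0.117 and was lower in females, 2027 ± 270.0 against 2551 ± 239.5 counts (SD), with a log2 fold change of -0.38 ± 0.06 (SE, edgeR adjusted p = 6.58e-07). AGAP001487-RB (shakB, an innexin gap junction gene that takes part in the fly visual system) ran against the opsin at -0.57. It had 288.5 ± 106.9 counts in females and 801.0 ± 219.7 in males, a log2 fold change of -1.51 ± 0.16 (edgeR adjusted p = 5.66e-10). Not all genes of the photoreceptor category therefore followed the opsin. Among the 87 non-opsin transcripts of the lists with a mean of 100 counts or more, the highest r was 0.749. It was that of AGAP003654-RA (GPRCAL3), a peptide receptor in the study's lists. This transcript had 346.7 ± 216.4 counts in females and 96.4 ± 45.01 in males, a log2 fold change of 1.80 ± 0.23 (edgeR adjusted p = 4.32e-08). Next came the acetylcholine receptor transcript AGAP009493-RA at 0.593, with 1224 ± 605.0 counts in females and 489.3 ± 407.7 in males.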

How the data were processed

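RNA from the antennal segments of pools of 35 mosquitoes was amplified as full-length cDNA (9 PCR cycles, then 12 for the libraries) and read as paired ends of 38 bp. Kallisto was run by the authors on the VectorBase release 53 transcripts, and they deposited its estimated counts per transcript and library without normalisation. Each of the 36 columns was matched to a sample, with 0 left over. One male ZT12 library, replicate 3, had been discarded by the authors and was left out of all results unless stated. Counts were rounded to whole numbers.

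Members were found by the rule given above. Size factors were DESeq2's median of ratios, taken over 35 libraries, and the pseudocount was 1. Tests were edgeR quasi-likelihood F-tests after filterByExpr and TMM scaling, adjusted by Benjamini-Hochberg across each whole table, with 0.05 as threshold. The models were time and sex, the same with the log2 level of AGAP013149-RA, time within each sex, and sex by time. Standard errors were obtained as |log2 fold change| / √F. Alternatives used DESeq2, no filter, total counts, another covariate, a replicate block, and fewer or more libraries. Each step was tested on simulated data with known changes. Fits were made in R 4.3.3 (edgeR 4.0.16 and DESeq2 1.42.0, with limma 3.58.1 loaded), and tables and plots in Python 3.11.15 with pandas 2.3.3, numpy 2.4.6 and matplotlib 3.10.9.

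The members, the lists and the tests were chosen with earlier results of these data known. Members named are the leading ones by r, mean count, sex difference (with and without the opsin level), time and nearness to the thresholds, with at most 2 identifiers printed for each such set and direction unless a set has 5 or fewer. The RefSeq table holds no AGAP identifiers, so none of the 69 member genes could be matched to it (0 found). Lists based on product names and all sequences were therefore not used here. Names of receptors come from the study's supplementary lists, whose values were not used.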

Additional observations from a re-analysis of the deposited data

Results flagged for a closer look

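Replicate 3 of the males at ZT12 was discarded in the study for low quality, because mechanosensory genes were very low in it. It had 10323 transcripts detected, where the other libraries had at least 12136 in females and 12523 in males. Outside the alternatives with all 36 libraries no comparison used it, but it held counts for the members. Their summed count there was 160023 of 13439788 (1.19%), against 0.94% for the opsin genes. A count above 3, the limit that a count of 0 allows, was found for 52 of 70 members, and 14 were at 0, while the other male ZT12 libraries had 67 or more members above 3. AGAP029557-RA and AGAP029557-RB together made up 119097 of these counts, 74.4%. That is 160.5% of the 74185 counts of AGAP013149-RA there, where the same ratio ran from 3.22% to 8.82% in the 35 other libraries with a median of 5.77%. With all 36 libraries the rule kept 36 members. The gene was singled out after its values were seen.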

How the results depend on the processing

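The sex result did not move. All 70 members were called higher in females and 0 in males under each of 45 alternatives, which include 35 fits without 1 library each, and in 3150 of 3150 pairs of member and alternative. Their number depends on the rule. It was 26 at an r of 0.9 or more, 36 with all 36 libraries, 66 to 164 when 1 replicate number was left out, 65 to 78 when 1 library was left out and 201 in females alone. The 164 came without replicate 1, which included 69 of the 70. With the opsin level held, the 4 calls became 2 to 5 without 1 replicate number, with 0 or 1 higher in males (1 without replicate 2). Time calls moved most. In females the 4 became 18 with DESeq2's likelihood ratio test, 13 with total counts, 25 with the opsin level as covariate and 0 to 3 without 1 replicate number. In males the 1 became 3 with DESeq2, 10 with the covariate and 0 without any replicate number. The cause was not tested, and leaving out a replicate number both lowers the number of libraries and removes those particular pools. Same-numbered male and female libraries of a time point correlated from -0.20 to 0.27, and only 6 of 17 pairs exceeded 0.1. The replicate numbers were therefore not treated as pairs. This check compared the sexes within a time point, so it cannot show whether a replicate number shared a batch across time points. With a replicate block, 70 members were still higher in females, 83 transcripts met the rule, the calls with the opsin level held were 3 in females and 1 in males, and time calls were 6 in females and 0 in males. The block ended the call of AGAP003509-RB with the opsin level held (edgeR adjusted p = 0.0545) and the male time call of AGAP002905-RA (edgeR adjusted p = 0.0522). Over all transcripts, DESeq2 called 650 for time in females and 633 in males, against 151 and 206 by edgeR, and 82 against 1 for sex by time. For time, edgeR called 109 in females and 162 in males with total counts, and 148 and 250 with a replicate block. A count of 0, as AGAP006001-RA had in single libraries, allows up to 3 counts.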
